A study of Drosophila melanogaster with 13 samples.

Results

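Of the 1581 distinct autosomal peaks of Dyak_Caf40, 257 also carried a peak of Dmel_Zeus, and these 257 shared sites are described here. They were chosen by the overlap of peak calls from both lists. A site was counted when a Dyak_Caf40 peak on 2L, 2R, 3L, 3R or 4 shared at least 1 bp with a Dmel_Zeus peak. The share was 16.3% of the autosomal Dyak_Caf40 peaks (95% Wilson interval 14.5 to 18.2), and the remaining 1324 peaks had no Dmel_Zeus peak. This share and the count on each arm follow from the rule and are given as a description.

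The peaks came from ChIP-Seq, which sequences the DNA fragments that an antibody pulls down along with a tagged protein. Dmel_Zeus is the Zeus protein of D. melanogaster, Dsim_Zeus that of D. simulans, and Dyak_Caf40 is Caf40 taken from D. yakuba, which has no Zeus. Each protein carried an N-terminal 3xFLAG tag and was driven by the Actin5C promoter from a piggyBac transgene in D. melanogaster of the w1118 background, and chromatin of whole adult flies was pulled down with 1 polyclonal anti-FLAG antibody. Of the 13 libraries, 4 were immunoprecipitations of Dyak_Caf40, 2 of Dmel_Zeus and 4 of Dsim_Zeus, and 3 were inputs, in which chromatin is sequenced with no pull-down. Libraries of 1 protein were technical replicates from pooled flies, and all hosts kept their own Caf40 and Zeus. The Actin5C promoter is active in most tissues, whereas Zeus is normally expressed in the testis, so the lists are not of testis chromatin alone. The authors summarised each protein in 1 list of peaks with a score, in which higher values were read as stronger peaks. Each list was assigned to its protein by a letter that its name shares with the fly line given in the library titles, and every value below rests on that assignment. The lists give neither values of single libraries nor the reads behind a peak, and the read totals that the study tabulates for its libraries were not used here, so no difference below could be set against the spread between replicates. The scale of the score was not stated, and scores were therefore compared by rank within a list.

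Caf40, also called Rcd-1, is a conserved subunit of the CCR4-NOT complex, which shortens the poly(A) tails of messenger RNAs and also acts in transcription. Zeus arose from Caf40 as a retrogene, a copy made from a spliced messenger RNA and inserted elsewhere in the genome, and it is known for its role in the testis. Chromosome 4 of D. melanogaster, the small dot chromosome, is rich in repeats and is packaged largely as heterochromatin although it carries active genes. The large autosomal arms 2L, 2R, 3L and 3R are mostly euchromatic and become repeat-rich towards the centromere.

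The shared sites lay at the strong end of the Dyak_Caf40 list. All of the 50 highest-scoring autosomal Dyak_Caf40 peaks were shared sites, as were 49 of the next 50 and 49 of the 50 after those. The count per 50 peaks then went down to 37, 31, 16, 10 and 5 and lay between 0 and 3 from there to rank 600, and 3 of the 981 peaks after rank 600 were shared. With the list cut into 10 equal classes by score, 98.1% of peaks were shared in the highest class (156 of 159), 50.6% in the next and 9.49% in the one below. In the lowest 40% none of 632 peaks was shared, which allows a share of up to 0.475% if 3 counts are taken as the limit of a count of 0, or 0.604% as the upper Wilson limit. The shared sites had a median Dyak_Caf40 score of 112.93 (interquartile range 61.29 to 240.2), and the other autosomal peaks had a median of 7.02 (5.22 to 11.07). The ranges nevertheless overlapped, because the shared sites went down to 7.41 and the other peaks went up to 226.38. Of the 257 shared sites, 236 were among the highest-scoring 20% of autosomal Dyak_Caf40 peaks (317 peaks with a score of at least 27.07) and 256 were in the upper 50%. Both lists call peaks by the strength of signal, so the Dyak_Caf40 score is not independent of the rule, and this pattern is a description without a test.

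**Figure D1:**
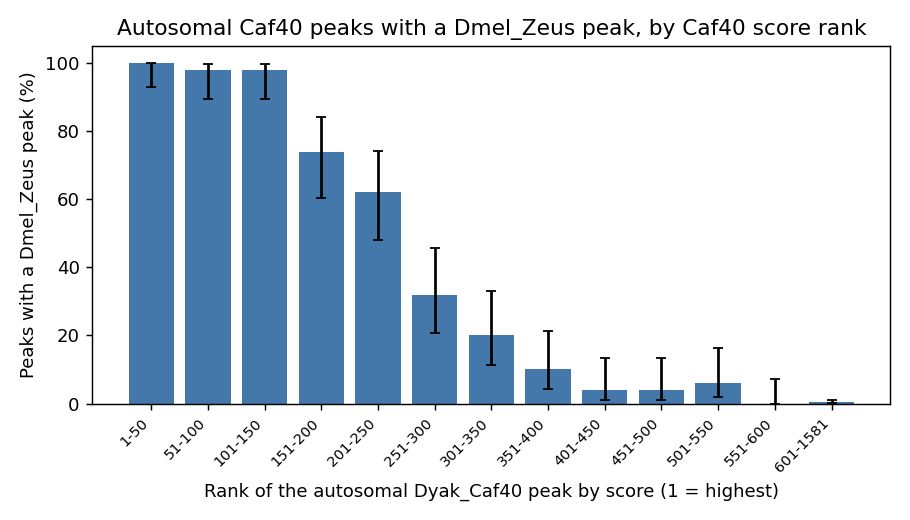
Share of autosomal Dyak_Caf40 peaks with a Dmel_Zeus peak (%, bars from 0) in successive classes of 50 peaks by Dyak_Caf40 score rank, with all 981 peaks after rank 600 in the last bar; error bars are 95% Wilson intervals, which cover counting error only. The share was 100% over the first 50 ranks and came to 3 of 981 peaks after rank 600.

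The strongest shared site was 3R:17234088-17234518 (positions here are on dm3, the build named in the study's methods), which ranked first in both lists with a score of 1450.35 for Dyak_Caf40 and 736.46 for Dmel_Zeus. The next was 3L:18081142-18081536, with scores of 1054.15 and 435.97 and rank 2 in both autosomal lists. The site 2L:8477953-8478371 ranked 3 for Dyak_Caf40 and 4 for Dmel_Zeus. The highest-scoring sites of the other arms were 2R:20225017-20225438, at rank 8 in both lists, and 4:380330-380670, at rank 31 for Dyak_Caf40 and 27 for Dmel_Zeus. At 4 of these 5 sites the Dyak_Caf40 peak was between 395 and 431 bp wide, and at the site on 4 it was narrower still.

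The sites that completed the first 10 ranks of Dyak_Caf40 were picked after their values had been seen, and all of them lay on the large arms. At rank 4 stood 3R:2733780-2734221, with a Dyak_Caf40 score of 988.48 and a Dmel_Zeus score of 388.76 at rank 3. It was followed by 2L:3108209-3108653, at ranks 5 and 9, and by 2L:12520169-12520748, at ranks 6 and 7, where both midpoints fell on the same base. The site 3R:17405204-17406234 was at ranks 7 and 5 and was the broadest of the 10 at 1031 bp, with its Dmel_Zeus midpoint 269 bp to one side. The site 2L:18859133-18859559 held rank 9 for Dyak_Caf40 and rank 11 for Dmel_Zeus, and was the only one of the 10 outside the first 10 of Dmel_Zeus. At rank 10, 3R:22706954-22707489 ranked 6 for Dmel_Zeus. None of the 10 carried a Dsim_Zeus peak, and 9 of them had no other Dyak_Caf40 peak within 10 kb.

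The weakest shared sites were weak in both lists. The lowest Dyak_Caf40 score, 7.41, belonged to 4:769130-769621, where the Dmel_Zeus peak scored 4.31 and ranked 265 of 269 autosomal peaks. It was followed by 3L:3320755-3321330, with scores of 9.03 and 6, and by 4:780444-781375, with scores of 9.34 and 3.99. In the opposite direction, the first autosomal Dyak_Caf40 peak without Dmel_Zeus stood at rank 69. This peak, 2L:7641638-7641992, had a score of 226.38 and lay 608048 bp from the nearest Dmel_Zeus peak and 190326 bp from the nearest other Dyak_Caf40 peak.

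The order of the sites was similar in both lists. Over the 257 shared sites the score ranks of Dyak_Caf40 and Dmel_Zeus had a Spearman coefficient of 0.925, and the log2 scores a Pearson coefficient of 0.928. The points are sites of 1 genome pulled down with 1 antibody, and any property of the local chromatin or of the mapping is shared by both values, so no p is given. The 10 highest-scoring sites of the lists had 9 in common and the 50 highest had 44. The coefficient was 0.944 over the 206 sites on the large arms more than 1 Mb from the centromere end. It was 0.848 over the 24 sites on 4 and 0.712 over the 27 sites within 1 Mb of the centromere end. Dyak_Caf40 scores ran from 9.03 to 1450.35, from 7.41 to 456.53 and from 16.45 to 169.55 in these groups. A narrower range can lower a coefficient, so the values do not show that the lists were less alike there. Counted in percentiles among the shared sites, 135 sites differed by no more than 5 points between the lists and 29 by more than 20, of which 17 ranked higher for Dmel_Zeus and 12 higher for Dyak_Caf40.

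**Figure D2:**
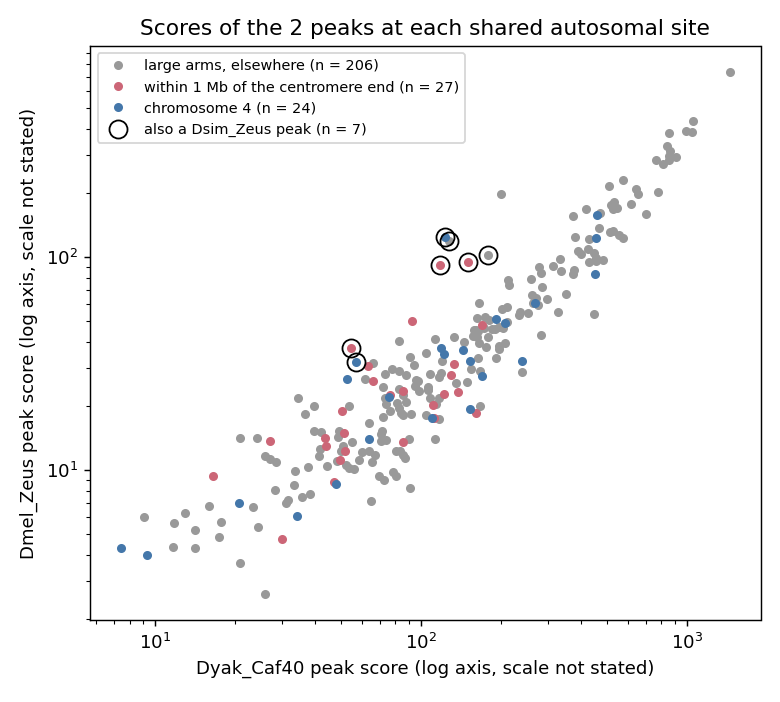
Dmel_Zeus score against Dyak_Caf40 score at the 257 shared autosomal sites, 1 point a site, both on log axes in the unstated units of the lists; colours mark chromosome 4 (n = 24), sites within 1 Mb of the centromere end (n = 27) and the rest (n = 206), and circles mark the 7 sites with a Dsim_Zeus peak. The points follow 1 band with a Spearman coefficient of 0.925, and the circled sites lie on its upper edge.

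The sites with the largest shifts were picked after their values had been seen. The furthest towards Dyak_Caf40 were 3R:7784481-7786480, where the Dmel_Zeus percentile was 33.1 points below that of Dyak_Caf40, 3L:1247764-1248442 at 28.0 points below and 3R:225570-225938 at 27.2 points below. Towards Dmel_Zeus, 2L:22415120-22415700 stood 36.2 points above and 4:612241-616218 stood 33.1 points above. These last 2 sites also carried a Dsim_Zeus peak.

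The peaks of both proteins sat on nearly the same bases. The Dmel_Zeus peak lay wholly inside the Dyak_Caf40 peak at 228 of the 257 sites (88.7%), and the Dyak_Caf40 peak lay inside the Dmel_Zeus peak at 6. Midpoints were a median of 15.5 bp apart (interquartile range 6.5 to 50.5), within 50 bp at 192 sites (74.7%) and more than 250 bp apart at 14. The offset had no preferred side, with the Dmel_Zeus midpoint at the lower coordinate at 122 sites and at the higher one at 133. The Dyak_Caf40 peak was the wider one at 246 sites. Its median width was 416 bp (interquartile range 342 to 585), and that of the Dmel_Zeus peak was 306 bp (247 to 383). The shorter peak was covered to at least 86.6% at every site, so the required overlap of 1 bp could be raised to 50% of the shorter peak without losing any of the 257 sites. Widths were less alike than scores, with a Spearman coefficient of 0.620 over the 257 sites.

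**Figure D3:**
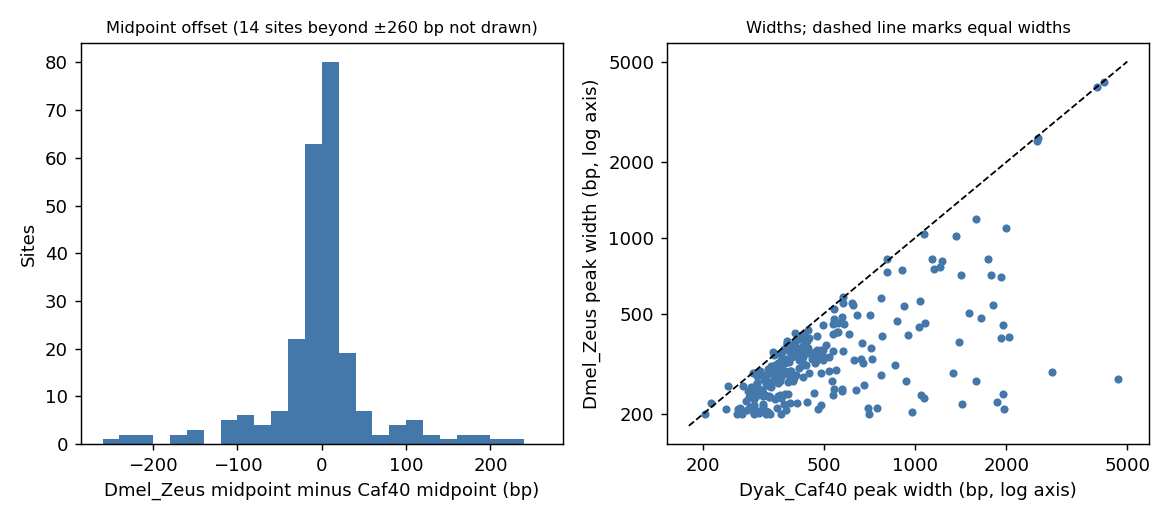
Left, number of sites by the distance from the Dyak_Caf40 midpoint to the Dmel_Zeus midpoint in bp (the title gives the 14 sites that lie outside the drawn range); right, Dmel_Zeus peak width against Dyak_Caf40 peak width in bp on log axes, 1 point a site, with a dashed line at equal widths. Midpoints gather around 0 with a median distance of 15.5 bp, and the Dyak_Caf40 peak was wider at 246 of 257 sites.

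A single Dmel_Zeus peak lay under 249 of the sites and a pair of them under the other 8. The widest of these 8 were 3L:3194730-3196770, 3R:24147097-24148899 and 4:775998-777581. No site was near the overlap threshold. The fewest shared bases were 181 bp at 3R:11791012-11791249, 194 bp at 3L:3252090-3252292 and 200 bp at 7 sites, 2L:7033312-7033635 among them. Just outside, the Dyak_Caf40 peak nearest to a Dmel_Zeus peak without touching it was 2L:4997815-4998213, at a gap of 108 bp, followed by 3L:19439661-19439960 at 165 bp and 3R:226108-226374 at 206 bp.

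Broad Dyak_Caf40 peaks were a minority that departed from this close fit. The peak was at least 1000 bp wide at 36 of the 257 shared sites (14.0%) and at 69 of the 1324 other peaks (5.21%), a difference of 8.80 percentage points (95% Newcombe interval 4.85 to 13.7). Such intervals cover counting error only and treat neighbouring peaks as independent. A wider peak also meets the overlap rule more easily, so width is not independent of the rule and is described only. Among the highest-scoring 20% of Dyak_Caf40 peaks the shares were 11.4% of 236 and 4.94% of 81, and the difference of 6.50 points had an interval that included 0 (-1.38 to 12.1). The 36 broad sites had a median score of 50.5, below the 132.93 of the narrower ones, and the Dmel_Zeus peak covered a median of 38.3% of the Dyak_Caf40 peak there. Of them, 4 were on chromosome 4, 2 were within 1 Mb of a centromere end and 30 were elsewhere. The widest was 2L:3060960-3065603, a Dyak_Caf40 peak of 4644 bp with a Dmel_Zeus peak of 277 bp inside it. The next, 2R:750966-755145 and 4:612241-616218, were 4180 and 3978 bp wide, and there the Dmel_Zeus peak was of the same order, at 4164 and 3978 bp.

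The shared sites were spread over every autosome, with a higher share on chromosome 4. The share of Dyak_Caf40 peaks with a Dmel_Zeus peak was 14.7% on 2L (47 of 319), 15.8% on 2R (59 of 373), 14.8% on 3L (58 of 392) and 15.9% on 3R (69 of 435), and the intervals of these 4 arms overlapped throughout. On chromosome 4 it was 38.7% (24 of 62, interval 27.6 to 51.2), which is 23.4 points above the 15.3% of the large autosomal arms (12.1 to 35.9). Chromosome 4 held 17.8 shared sites per Mb, and the large arms between 2.04 and 2.81. Dyak_Caf40 peaks of both kinds together were also denser there, at 46.0 per Mb against 13.9 to 17.8 on the large arms. The density of shared sites is therefore not a trait of these sites alone. Among peaks with a score of at least 27.07, 21 of 26 on chromosome 4 (80.8%) and 215 of 291 on the large arms (73.9%) were shared, a difference of 6.89 points whose interval included 0 (-12.3 to 18.9). Below that score 3 of 36 and 18 of 1228 were shared, which left a difference of 6.87 points (1.34 to 20.4). It rests on 3 sites that lie in 1 run of 12246 bp, 4:769130-781375. The interval counts them as independent, which neighbours in 1 run are not. On the X chromosome, used here only for comparison, 65 of 286 peaks (22.7%) were shared. That was 6.47 points above the autosomes (1.61 to 11.95). With only the higher-scoring 50% of each list the difference was -1.02 points. No interval was computed for that value, so no reversal is read from it. Above the score of 27.07 the X and the large arms differed by 7.45 points (-3.84 to 16.4).

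**Figure D4:**
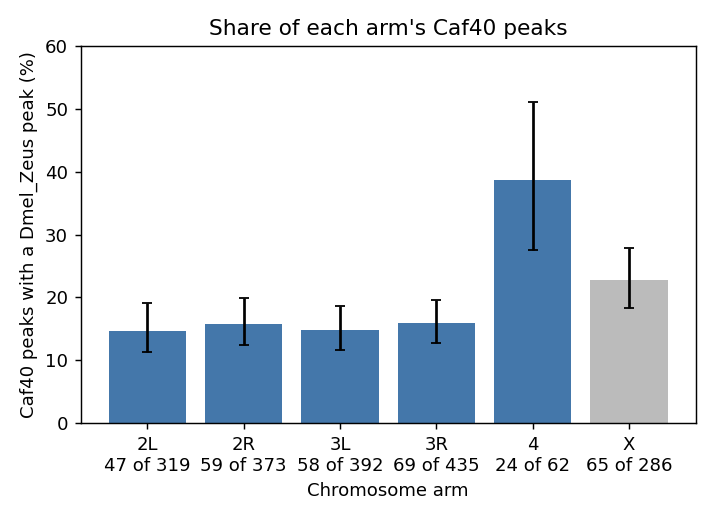
Share of Dyak_Caf40 peaks with a Dmel_Zeus peak (%, bars from 0) on each autosomal arm and, in grey, on X, with counts under each bar and 95% Wilson intervals that cover counting error only. The 4 large autosomal arms lie between 14.7% and 15.9%, and chromosome 4 stands at 38.7%.

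The shared sites were more isolated than the other autosomal Dyak_Caf40 peaks. Another Dyak_Caf40 peak lay within 10 kb of 119 of the 257 sites (46.3%, 40.3 to 52.4) and of 918 of the 1324 others (69.3%, 66.8 to 71.8), against 65.6% of all autosomal Dyak_Caf40 peaks. The difference was -23.0 points (-29.5 to -16.4). Score moved with this result: among the highest-scoring 20% of peaks the shares were 44.1% and 51.9%, and the difference of -7.78 points had an interval from -20.01 to 4.69. The median distance to the nearest other Dyak_Caf40 peak was 12168 bp for shared sites and 1673.5 bp for the rest. From 1 shared site to the next the median distance was 71342 bp, and 50 sites had another within 10 kb.

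When autosomal Dyak_Caf40 peaks less than 10 kb apart were joined into chains, 866 chains and single peaks resulted, of which 229 held a shared site. Among single peaks 138 of 544 were shared sites, and 91 of the 322 chains of 2 or more peaks held at least 1. In the 78 chains with both kinds of peak, a shared site had the highest score in 74. In the 4 exceptions a peak without Dmel_Zeus scored higher, as in the chain at 3L:1655413-1662304, where the scores were 18.09 and 17.39. Over all autosomal peaks the median score was 112.93 at shared sites and 7.02 at the others. The count of 74 is therefore not separate from that difference in score. The longest chain, picked after the values had been seen, ran over 2L:5154781-5202161 with 28 peaks and held 1 shared site with a score of 14.05.

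The longest runs of shared sites with gaps under 10 kb held 3 sites each. The run on chromosome 4, 4:769130-781375, spanned 12246 bp and was weak, with Dyak_Caf40 scores of 7.41, 20.58 and 9.34. The run at 3R:2644975-2648532 spanned 3558 bp and was strong, with scores of 91.8, 467 and 415.79. Dmel_Zeus ranked the latter run in a similar order, at 174, 29 and 24. Runs of the same length were therefore found at both ends of the score range.

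Shared sites lay near the centromere end of a large arm more often than the other Dyak_Caf40 peaks. With the score limited to the highest 20%, the interval of this difference included 0. On the large arms 27 of 233 shared sites (11.6%) and 63 of 1286 other peaks (4.90%) lay within 1 Mb of the centromere end, a difference of 6.69 points (2.95 to 11.6). Among the highest-scoring 20% of peaks the shares were 12.1% and 10.5%, a difference of 1.57 points (-8.07 to 8.73). The first Mb of 2R held 9 shared sites among 26 Dyak_Caf40 peaks, the most shared sites in any 1 Mb window of the large arms. The window of 2L from 22000001 to 23000000 held 8 among 20, and the first Mb of 3R held 7 among 35. The window of 3L from 1000001 to 2000000 held 6 among 41. On the large arms as a whole, 233 of 1519 Dyak_Caf40 peaks were shared. Of the 98 windows on the large arms, 15 held no shared site, 24 held 1, 32 held 2 or 3 and 27 held at least 4. This split was not set against the number of Dyak_Caf40 peaks in each window.

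Peaks of Dsim_Zeus were rare both at the shared sites and at the other autosomal Dyak_Caf40 peaks. A Dsim_Zeus peak overlapped 7 of the 257 sites (2.72%, 1.33 to 5.51) and 13 of the 1324 other peaks (0.982%, 0.575 to 1.67), against 1.27% of all autosomal Dyak_Caf40 peaks. The difference was 1.74 points (0.182 to 4.56). Among the highest-scoring 20% of peaks it was -0.738 points (-7.54 to 3.15), with 7 of 236 shared sites and 3 of 81 others. The shared sites lay a median of 175596 bp from the nearest Dsim_Zeus peak and the other peaks 213700 bp. Dsim_Zeus libraries carried numbers apart from those of the other proteins, so a library series and the protein cannot be told apart.

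The 7 sites bound by all 3 proteins were 2L:22415120-22415700, 2R:750966-755145, 3L:23105816-23108347, 3L:23108438-23110955, 3L:23841920-23842730, 4:612241-616218 and 4:703205-703827. The site on 2L, that on 2R and the last of the sites on 3L lay within 1 Mb of the centromere end, the other pair on 3L lay further out, with 3L:23108438-23110955 at 1390798 bp from it, and the rest were on chromosome 4. At each of the 7 the Dmel_Zeus and Dsim_Zeus peaks themselves shared bases. Their median Dyak_Caf40 width was 2518 bp, against 410 bp for the 250 others, although a wider peak meets an overlap rule more easily. Of the 7 sites, 3 carried several Dsim_Zeus peaks, with 4 under each of 2R:750966-755145 and 3L:23108438-23110955 and 3 under 4:612241-616218. The similarly broad 3L:23105816-23108347 carried 1. The Dsim_Zeus peak ranked 4 of 473 autosomal peaks at 3L:23841920-23842730 and 416 at 4:703205-703827. At all 7 sites Dmel_Zeus ranked higher than Dyak_Caf40, by 16.7 to 36.2 percentile points among the shared sites, while the median over the 250 others was -0.389 points. This shift was noticed after the values had been seen, and it was not limited to the 7 sites. Of the 17 shared sites that stood more than 20 points higher for Dmel_Zeus, 6 carried a Dsim_Zeus peak. In groups that overlap, 5 of the 17 lay within 1 Mb of a centromere end and 3 on chromosome 4. Without a Dsim_Zeus peak the shift reached 27.6 points, and 2R:755210-756283, which lies 64 bp from 2R:750966-755145, stood at 25.3 points.

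Nearly every autosomal Dmel_Zeus peak was accounted for by a shared site, 265 of 269. The 3 highest-scoring exceptions were 2L:23000524-23000765, with a score of 38.82 at rank 103 and the nearest Dyak_Caf40 peak 15225 bp away, 3L:18979238-18979575, at 3170 bp, and 3R:11113447-11113665, at 773 bp. The last pair of these ranked 252 and 258 in the Dmel_Zeus list. No Dsim_Zeus peak overlapped any of the 4 exceptions.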

How the data were processed

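Peak lists of 3 proteins were analysed. Per the study's methods, the authors mapped reads with BWA to the UCSC build dm3 and called peaks with MACS2, and kept peaks found in both of the best pair of replicates. Neither that pair nor the use of the inputs in peak calling is stated. The processing notes of the submitters also name CASAVA 1.4 and, as a build, mm9 of the mouse. Since the sequence names in the lists are those of the fly, dm3 was taken as the build. No scale is given for the score in the deposited lists, and it was used for ranks within a list only. Repeated lines of 1 peak were counted once, which left 1964 of 2076 lines for Dyak_Caf40, 378 of 393 for Dmel_Zeus and 1091 of 3073 for Dsim_Zeus.

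Overlaps, distances, Wilson and Newcombe intervals and rank coefficients were computed with Python 3.11.15, numpy 2.4.6, pandas 2.3.3 and SciPy 1.17.1, and plots with matplotlib 3.10.9. The overlap code was checked on simulated intervals. No test was run, since the rule used both lists and no list has replicate values. Centromere ends were taken as the high coordinate of 2L and 3L, set at the highest peak end, and the low coordinate of 2R and 3R. They are ends of the arm sequences and not the centromeres themselves. The shared sites and all measures were chosen with earlier results of these data known.

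Sites were named by rule: the highest-scoring site of each arm, the 3 highest and 3 lowest scores, the 3 smallest overlaps and gaps, the 3 widest, those with Dsim_Zeus, Dyak_Caf40 peaks of the top 100 without Dmel_Zeus, the longest runs, up to 3 sites with several Dmel_Zeus peaks, and up to 3 Dmel_Zeus peaks without Dyak_Caf40. Others are marked as picked later. No annotation or genome of dm3 was used, so genes, promoters and the CAZAM motif were not analysed here. Alternatives were a stricter overlap, midpoints within 250 bp, the higher-scoring 50% of each list, every line counted, score and width classes, and other distances.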

Additional observations from a re-analysis of the deposited data

Results flagged for a closer look

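Among Dyak_Caf40 peaks on sequences that dm3 names as heterochromatic, 32 of 96 also carried a Dmel_Zeus peak (33.3%, 95% Wilson interval 24.7 to 43.2). The share over autosomal Dyak_Caf40 peaks was 16.3%. These shares were not matched for score, with which the share rose on the autosomes. The comparisons above were limited to the chromosome arms and used none of these heterochromatic peaks.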

How the results depend on the processing

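Over 16 settings, 31 of 41 recomputed values stayed within the interval of the main value, or within 1.5 times it for differences of medians. No site was lost at 50% of the shorter peak, so the values of that setting could not move. For chromosome 4, Dsim_Zeus, neighbours and centromere ends, the value compared was the share among shared sites, not its difference from the other peaks. Among the highest-scoring 20% of peaks, the intervals of those differences included 0. With the higher-scoring 50% of each list there were 131 shared sites, and the X minus autosome difference was -1.02 points, without an interval. In that setting 32.1% of shared sites lay within 10 kb of another Dyak_Caf40 peak. Of those on the large arms, 6.78% lay within 1 Mb of a centromere end. The difference in median width was 39.5 bp there, in place of 98 bp. It was 102.5 bp among the highest-scoring 20% of Dyak_Caf40 peaks, and 139 bp within score classes, of which 2 could be used. Ranks taken within width classes gave a coefficient of 0.889. With neighbours within 5 kb or 20 kb the share was 38.9% or 61.1% (62.0% or 78.0% of the other peaks). With 0.5 Mb or 2 Mb from the centromere end it was 5.15% or 17.2% (2.41% or 10.2%). The cause of these shifts was not tested, and distance limits move both groups by construction. With the higher-scoring 50% of each list, neighbours were sought only among the 765 autosomal Dyak_Caf40 peaks kept, which left fewer of them by construction. The shares of the other peaks were not computed in that setting, so its shares cannot be read as a change in the difference. The highest-scoring 20% of Dyak_Caf40 peaks, and leaving out chromosome 4 or the centromere ends, were settings chosen after seeing the data.

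No paired analysis was possible because single libraries have no values in the lists, and leaving out a replicate was not possible either. The reads behind a peak are not in the lists, so a missing Dmel_Zeus peak at a weak Dyak_Caf40 peak does not show that Dmel_Zeus is absent there. The same holds for a missing Dsim_Zeus peak.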

Other observations

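On the X chromosome the 65 Dyak_Caf40 peaks with a Dmel_Zeus peak had a median score of 84.96 (interquartile range 52.77 to 168.58), against 112.93 at the autosomal shared sites, and the 221 X peaks without one had a median of 7.21, close to the 7.02 of the autosomal peaks without one.

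A peak listed on several lines of the Dyak_Caf40 list was less frequent among the shared sites, at 4 of 257 (1.56%), than among the other autosomal peaks, at 83 of 1324 (6.27%), and applied to 87 of all 1581 (95% Wilson interval 4.48% to 6.74%). Among the highest-scoring 20% of peaks the shares were 3 of 236 (1.27%) and 1 of 81 (1.23%), and their difference had a 95% Newcombe interval from -5.46 to 2.64 points. The source of the repeated lines is not stated.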
